A study of Mus musculus with 29 samples.

Results

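The 6 genes described here encode the adhesion molecules with which endothelium catches leukocytes from the blood: P-selectin (Selp), E-selectin (Sele), ICAM-1 (Icam1), ICAM-2 (Icam2), VCAM-1 (Vcam1) and PECAM-1 (Pecam1). They were chosen by name and are 6 of the 19704 genes in the tables of young brains and of the 27514 in those of aged brains. The data are Drop-seq profiles, in which single cells are captured in droplets, of sorted CD45 intermediate and CD45 high leukocytes and CD45-negative, Ly6C-high endothelial cells from brains of C57BL/6J mice after transient occlusion of the middle cerebral artery or sham surgery. Young mice were male and 8 to 10 weeks old, with 4 libraries each of sham at day 2, stroke at day 2 and stroke at day 14. Aged mice were 17 to 20 months old, with 2 sham libraries at day 2 (1 male, 1 female), 3 stroke libraries at day 2 (1 male, 2 female) and 1 female stroke library at day 14. Each library pooled hemispheres of several mice, and every group carried the inhibitors added during papain digestion, among them actinomycin D, which blocks new transcription. There was no sham group at day 14, so day 14 was set against sham at day 2. Because the endothelial gate required high Ly6C, the levels below are those of gated cells.

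Leukocytes leave the blood in steps. Selectins hold passing cells loosely so that they roll along the vessel wall, ICAM and VCAM molecules then bind activated leukocyte integrins and bring the cells to arrest, and PECAM-1 at the endothelial junctions takes part in their passage between cells. P-selectin protein is stored in Weibel-Palade bodies of endothelium and in platelet granules, E-selectin is made by endothelium on cytokine stimulation, and ICAM-2 and PECAM-1 are carried by resting endothelium.

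Selp lies on chromosome 1 at 164115264 to 164150026 and Sele on the same chromosome at 164039614 to 164058487, Vcam1 on chromosome 3 at 116110020 to 116129688, Icam1 on chromosome 9 at 21015940 to 21028814, and Icam2 and Pecam1 on chromosome 11 at 106377656 to 106388139 and 106654213 to 106715281 (RefSeq, GRCm38.p6). The 250 bases before the start site of the promoter table are shown for the selectins, since these were the genes that went from no count to a count in every library at day 2. For Sele that start lies inside the annotated span above, which begins further upstream. Capitals mark matches, on either strand, to the AP-1 motif TGANTCA or to TATAAA.
Selp, chr1:164115014-164115263, plus strand: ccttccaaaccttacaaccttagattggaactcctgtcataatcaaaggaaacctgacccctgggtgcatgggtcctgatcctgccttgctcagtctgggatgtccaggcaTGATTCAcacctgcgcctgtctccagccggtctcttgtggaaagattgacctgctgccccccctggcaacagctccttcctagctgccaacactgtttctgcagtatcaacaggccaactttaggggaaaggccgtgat
Sele, chr1:164047984-164048233, plus strand: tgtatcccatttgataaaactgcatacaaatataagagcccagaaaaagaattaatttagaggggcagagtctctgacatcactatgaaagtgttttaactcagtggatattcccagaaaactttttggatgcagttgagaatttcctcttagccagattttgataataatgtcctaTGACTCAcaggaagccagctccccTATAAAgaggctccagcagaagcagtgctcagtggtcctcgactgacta
An AP-1 match stood 139 to 133 bases before the start of Selp and 73 to 67 bases before that of Sele, and a TATAAA match 49 to 44 bases before that of Sele, with no overlap between them. The same window of Icam1 held none of these. No window of the 3 genes matched the NF-kB consensus, searched as the strict pattern GGGRNNYYCC (R is A or G, Y is C or T, N is any base). The Icam1 window held tggaaattcc and the Sele window tggatattcc, which each differ from this pattern at the first base only. Near matches were not counted, so the search does not show that a site is absent. Of 32851 mouse promoters of this length, 6.75% held the AP-1 motif, 12.4% TATAAA and 7.25% the NF-kB consensus. Icam2, Vcam1 and Pecam1 were not matched in the promoter table.

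The 18 brain libraries held 55268 cells with 819438 to 5855047 counts per library, of which 7627 cells were annotated as endothelial (EC) by the authors, 176 to 1171 per library, with library medians from 281 to 1008 counts in each cell. Of 55174 distinct barcodes, 91 occurred in more than 1 library. All 12 endothelial identity genes were measured in these cells, and their summed level was 23039 to 32782 CPM (counts scaled to a common total of 1e+06) in young sham, 15930 to 20929 at day 2 and 24446 to 29765 at day 14. Libraries also fell into 2 sets by the mitochondrial share of their endothelial cells, with medians of 0.496% to 1.12% or of 5.15% to 8.62%. The low set held 1 sham, 2 day 2 and 2 day 14 libraries of young mice and no aged library.

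The selectins were the members that separated stroke at day 2 from sham in young endothelium. In endothelial cells Selp was at 0 in each of the 4 sham libraries and at 70.7, 52, 40.6 and 19.6 CPM at day 2, from 14.3 to 39.7 counts per library. The groups did not overlap, as held for 8.09% of the 5833 genes tested in that direction. The pooled level of 43.3 CPM exceeded sham by at least 12.5-fold, with the sham floor set at 3 counts over the group (3.47 CPM). Selp rose by edgeR's quasi-likelihood test (Benjamini-Hochberg adjusted p = 0.0203) and was the 1 member called of 5 tested, where 13.3% of all genes were called. By day 14 Selp was at 0 in 3 of 4 libraries and at 38.2 CPM in replicate 3, where all 8.9 counts lay in 3 cells. Against day 2 this was a log2 difference of -2.43 ± 0.90 (SE, n = 4 and 4, edgeR adjusted p = 0.0993), and without day 14 replicate 3 the adjusted p was 0.0112. The day 2 call was lost without sham replicate 1 (0.0506), 2 (0.0648), 3 (0.0596) or 4 (0.053), without day 2 replicate 1 (0.0558) with cells of at least 800 counts (0.224) and within the low mitochondrial set (0.124), and DESeq2 gave no adjusted p for this gene. Within the low and the high mitochondrial set, day 2 means were 61.4 and 30.1 CPM and sham was at 0 in both.

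Sele also went from no count in sham to a count in every library at day 2, at lower counts. It was at 0 in the 4 sham libraries and at 28.1, 26.1, 18.7 and 32.4 CPM at day 2 (7.8 to 23.7 counts), so that the groups again did not overlap. The 8.09% of genes without overlap covers only genes that passed the filter on low counts, which Sele did not. Its pooled level of 27.4 CPM was at least 7.9-fold over the sham floor. The filter on low counts left Sele out of the fit; the exact permutation test on CPM gave a two-sided p of 0.0286, the smallest that 4 against 4 allows, and 0.1 after adjustment over 21 such tests. With no filter, edgeR's adjusted p was 0.00802. At day 14 Sele, like Selp, had counts in replicate 3 alone (51.3 CPM), with 10 of its 12 rounded counts in a single cell. The exact permutation p of day 14 against day 2 was 0.4 (0.686 adjusted), so that a fall of Sele was not shown. Within the low and the high mitochondrial set the day 2 means of Sele were 27.1 and 25.6 CPM.

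A count of either selectin was found in few cells. At day 2, 36 of 2491 endothelial cells had a Selp count (1.45%, exact 95% interval 1.01 to 2.00) and 37 a Sele count (1.49%), against 0 of 1779 in sham, which allows a share of cells with a count of up to 0.169%. This limits cells with a count and not cells that express the gene, since sham endothelial cells had a median of 403 counts. At day 2 the median was 571 counts in endothelium and 972 in microglia, which should lack selectins and had 0 of 2693 cells with either. Leukocytes were not all without Selp at day 2, with a count in 32 of 1282 dendritic cells (2.5%, exact interval 1.71 to 3.51) and in 4 of 350 granulocytes (1.14%, 0.312 to 2.90). After thinning each cell to 300 counts, 14 of 2105 endothelial cells at day 2 (0.665%) and 0 of 1272 in sham kept a Selp count. These intervals cover counting error only. Of the 36 Selp cells, 10 also had Sele (27.8%, against 1.1% of the other cells), 15 had Vcam1 (41.7% against 3.75%) and 13 had Icam1 (36.1% against 4.73%). The Selp cells were also deeper, with a median of 1971 counts against 565, and the part of depth in this overlap was not tested. A single cell of replicate 1 held 18 counts, 20% of all Selp counts at day 2.

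Platelets carry Selp too, so platelet genes were read in the same cells. None of the 36 Selp cells at day 2 had a count of any of 8 platelet genes (Pf4, Ppbp, Itga2b, Gp9, Gp1ba, Gp5, Gp6, Treml1), against 43 of 2455 other endothelial cells (1.75%). At that share few of 36 cells would have one, so that the part of platelets in the Selp counts was not tested. Gp9, Gp1ba, Gp5 and Gp6 each summed to under 0.5 of a count in the endothelial cells of that group. The summed platelet level was 0 to 52.9 CPM over day 2 libraries and 0 to 17 CPM over sham libraries.

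**Figure D1:**
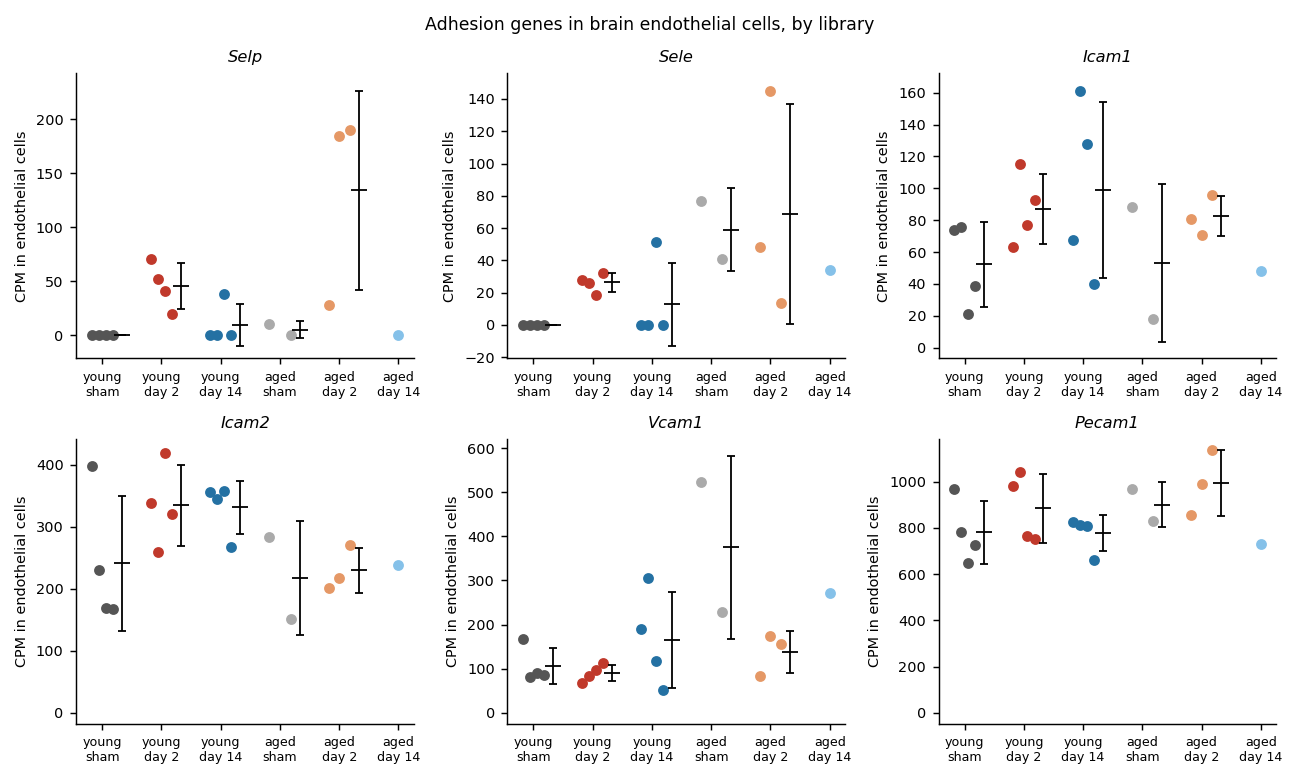
CPM of each gene (y axis) in endothelial cells, 1 point per library, by age and group (x axis); the black dash and bar to the right of the points are the mean and SD over libraries, and aged day 14 is a single library. Selp and Sele sit at 0 in all 4 young sham libraries and above 0 in all 4 young day 2 libraries, while Icam2 and Pecam1 overlap between all young groups.

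The arrest molecules differed less between groups than between libraries. Icam1 in endothelial cells was 73.7, 75.5, 21.1 and 38.8 CPM in sham, 63.3, 115, 76.9 and 92.7 CPM at day 2, and 67.3, 161, 128 and 40.2 CPM at day 14. The ranges overlapped in every pair of groups. The log2 difference of Icam1 was 0.70 ± 0.41 (SE, 95% interval -0.10 to 1.50) at day 2 against sham, with an edgeR adjusted p of 0.263, and 0.82 ± 0.42 at day 14 (adjusted p = 0.843). Intervals this wide do not show that the level stayed the same.

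Vcam1 gave no stable direction at day 2. Its level was 168, 81.1, 90.6 and 86.8 CPM in sham, 68.4, 83.5, 96.5 and 112 CPM at day 2, and 190, 305, 118 and 51.2 CPM at day 14. Sham replicate 1 was the highest of its group, and 3 of 4 day 14 libraries lay above every day 2 library. The log2 difference was -0.20 ± 0.38 at day 2 against sham (edgeR adjusted p = 0.76) and 0.84 ± 0.36 at day 14 against day 2 (adjusted p = 0.149). The mitochondrial sets differed here: day 14 libraries averaged 248 CPM in the low set and 84.8 in the high set, and day 2 libraries 75.9 and 104. Within the high set alone the day 14 against day 2 difference turned to -0.29, and without sham replicate 1 the day 2 difference against sham turned to 0.10.

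The resting-endothelium members stayed abundant throughout. Icam2 was 398, 231, 169 and 167 CPM in sham, 339, 260, 419 and 320 CPM at day 2, and 356, 345, 357 and 267 CPM at day 14. Sham replicate 1, of the low mitochondrial set, stood above the other sham libraries, and the log2 difference at day 2 was 0.51 ± 0.24 (edgeR adjusted p = 0.163). Without that library it was 0.82, with an adjusted p of 0.0245, while within the low mitochondrial set it was -0.28. Pecam1 was 650 to 967 CPM in sham, 751 to 1041 at day 2 and 662 to 826 at day 14. Its log2 difference was 0.27 ± 0.20 at day 2 (95% interval -0.13 to 0.67, edgeR adjusted p = 0.386) and -0.01 ± 0.21 at day 14 (interval -0.41 to 0.39, adjusted p = 1). Between day 14 and sham, 0 of 5 members were called by edgeR, with 0 at an unadjusted p under 0.05, and 0 of the 3 (Icam2, Vcam1 and Pecam1) for which DESeq2 gave an adjusted p, where 0% of all genes were called and 6.1% had such an unadjusted p. Between day 14 and day 2, 0 of 5 were called by edgeR, 0 of 4 (all but Selp) by DESeq2, and 2, Selp and Vcam1, had an unadjusted p under 0.05, where 11.2% of all genes were called and 26.5% had such an unadjusted p. The 3 comparisons of young groups share libraries and are not independent.

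**Figure D2:**
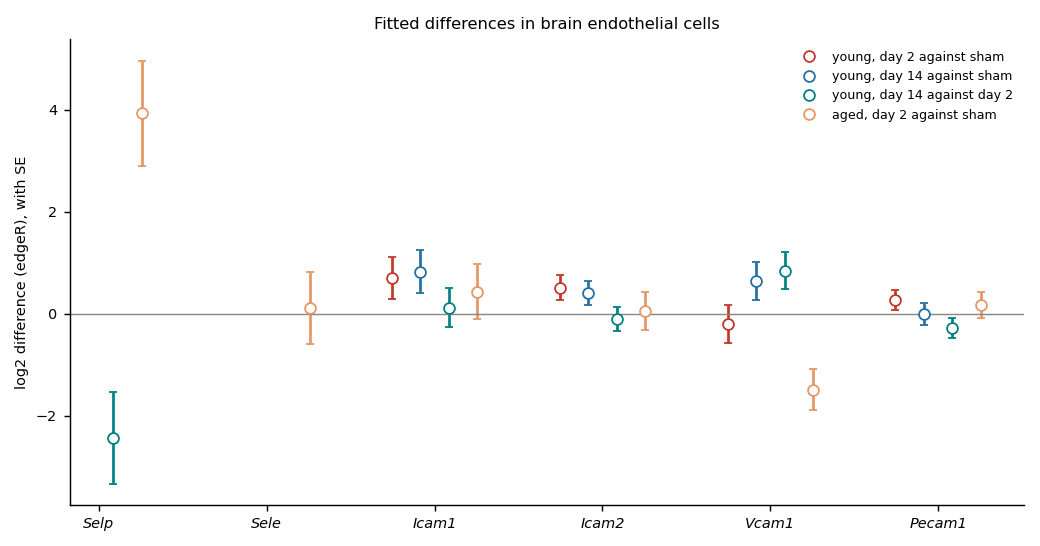
Log2 differences fitted by edgeR (y axis) for each gene (x axis) in endothelial cells, with SE bars and 1 colour per comparison; no point shown passed an adjusted p of 0.05. Selp against young sham is left out because sham is at 0, and Sele is shown only where it was tested; Vcam1 in aged mice has the lowest value of the arrest molecules, -1.49.

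The authors' sub-types place these genes in different parts of the endothelium. EC6 held 4.44% of the young endothelial cells but 79.9% of the Selp counts, 56.4% of Sele, 51.5% of Vcam1 and 40.5% of Icam1, against 5.55% of Icam2 and 3.99% of Pecam1. The summed level of 6 venous genes without the members was 5508 CPM in EC6 and 101 to 2084 CPM in the other sub-types, led by Ackr1, an atypical chemokine receptor of venules, at 3294 CPM. EC6 made up 3.93% of endothelial cells in young sham, 5.06% at day 2 and 4.04% at day 14. These sub-types were annotated by the authors with the same transcripts, so the values are a description and carry no test.

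Within EC6, Selp went from 0 of 70 sham cells to 539 CPM at day 2 (exact Poisson 95% interval 419 to 682, 126 cells) and 130 CPM at day 14 (60.1 to 250, 65 cells). The 3 day 2 libraries with at least 20 EC6 cells gave 646, 591 and 245 CPM, and the single such sham and day 14 libraries 0. Sele in EC6 was 0 in sham, 207 CPM at day 2 (133 to 297) and 174 at day 14 (90.6 to 306), with overlapping intervals after stroke. Vcam1 was 931 CPM in sham (interval 659 to 1278), 745 at day 2 (600 to 906) and 1814 at day 14 (1507 to 2160), and Icam1 558, 423 and 869 CPM. The intervals of Vcam1 and Icam1 at day 14 did not overlap those at day 2, but they pool libraries and cover counting error only.

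Outside EC6 the genes parted. EC2, a sub-type with 1017 of 2491 endothelial cells at day 2 and 54 of 1779 in sham, held 45.9% of the Sele counts at day 2 and 9.93% of the Selp counts. Its Sele level there was 26.8 CPM and its Selp level 9.16 CPM. EC4, which led in the arterial genes (3573 CPM summed), carried Vcam1 at 344 CPM over young groups, and so did EC7 at 239 CPM. EC1, the largest sub-type with 39.2% of young endothelial cells and the highest capillary sum (7167 CPM), had Vcam1 at 19.3 CPM, Selp at 0.808 CPM and Sele at 0. Icam2 ranged over the 9 sub-types from 239 CPM in EC9 to 537 in EC7, and Pecam1 from 356 in EC9 to 1388 in EC7. The 28 EC9 cells averaged 1629 counts and held 10.1% of young Selp counts.

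**Figure D3:**
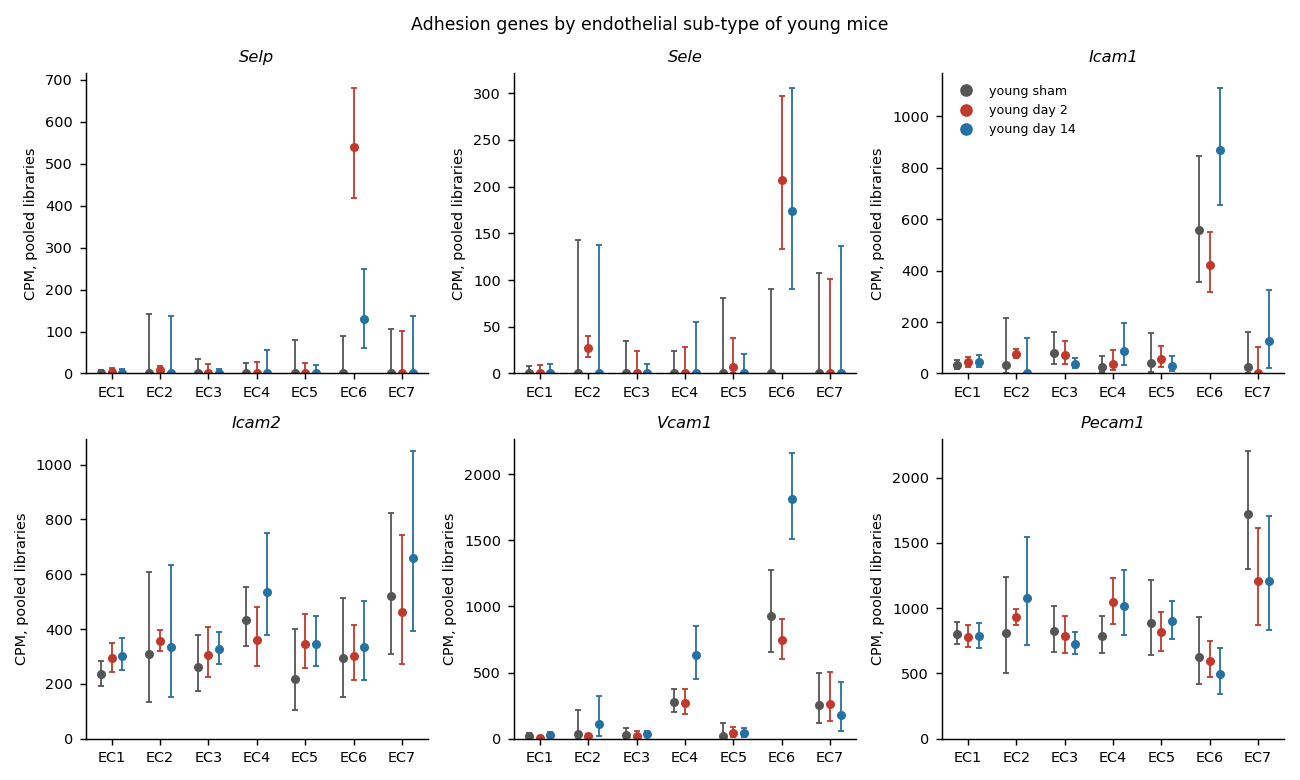
CPM pooled over libraries (y axis) in the endothelial sub-types EC1 to EC7 (x axis) of young mice, coloured by group, with exact Poisson 95% intervals; combinations under 20 cells are left out. EC6 stands apart for Selp, Sele, Icam1 and Vcam1, and the interval of Selp in EC6 at day 2 (419 to 682) lies above that at day 14 (60.1 to 250).

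Aged endothelium had selectin counts without stroke. Sele was 77.1 CPM in the male and 40.7 CPM in the female aged sham library, against 0 in all 4 young sham libraries, and pooled it was 67 CPM, at least 19.4-fold over the young sham floor. The female value rests on 4 counts. Of 12 aged sham cells with Sele, 7 also had Vcam1, and 20.9 of 23.9 counts lay in EC6. Age, the number of libraries and, for the female, sex differ from the young groups. The deposited tables differ too, with 27514 genes for aged and 19704 for young brains. In endothelial cells, 5 erythroid genes summed to 36.6 to 3545 CPM in young sham libraries and to at most 5.25e-15 CPM in aged sham. Age cannot be told apart from these, and the Sele difference was not tested. After stroke at day 2, aged Sele was 48.3, 145 and 13.3 CPM, on both sides of the sham libraries.

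Selp in aged endothelium was 10.7 and 0 CPM in sham and 27.9, 184 and 190 CPM at day 2. Every day 2 library lay above both sham libraries, as held for 14.4% of the 6604 genes tested, and the male library was the lowest. The pooled level was 111 CPM at day 2 and 7.74 in sham, which rests on 3 counts. From whole counts (58 and 3) the ratio per depth was 13.3, with a counting interval of 4.32 to 66.2. The edgeR adjusted p was 0.119 (n = 3 and 2), 0.214 with sex as a covariate and 0.000191 with no filter on low counts. Vcam1 was 522 and 229 CPM in aged sham and 83.9, 174 and 156 CPM at day 2, so that all stroke libraries lay below both sham libraries, as held for 13.9% of genes. Its log2 difference was -1.49 ± 0.40 (SE, edgeR adjusted p = 0.112, and 0.0056 with no filter), and -0.67 without the male sham library. Icam1, Icam2 and Pecam1 overlapped between the aged groups. At aged day 2, 0 of 6 members were called by edgeR and 0 of 4 by DESeq2, which gave no adjusted p for Selp and Sele, and 2, Selp and Vcam1, had an unadjusted p under 0.05, where 0.606% of all genes were called and 11.7% had such an unadjusted p. The aged stroke library at day 14 had Selp at 0, Sele at 34.1 CPM (2 counts) and Vcam1 at 271 CPM.

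By sub-type, aged EC6 at day 2 had Selp at 486 CPM (exact Poisson interval 260 to 835, 28 cells), an interval that overlaps that of young EC6 (419 to 682). EC6 held 22.5% of the aged Selp counts and EC2 37.7%, against 77.8% and 9.93% in young mice. Of 23 aged cells with Selp, 16 were EC2 and 4 EC6, against 9 and 22 of 36 in young mice. EC2 made up 62.7% of the aged and 40.8% of the young endothelial cells at day 2. Selp within EC2 was also higher in aged mice, at 64.2 CPM (exact Poisson interval 40.8 to 98.5) against 9.16 (4.28 to 17.8). These intervals pool libraries and cover counting error only, and the difference between ages in where the counts lay was not tested. A pair of EC9 cells of 1 female library held 21.9 of its 27.9 Selp counts, 38.1% of those of the group. Platelet genes were found in 2 of those 23 cells and in 13 of 725 others. For the difference between ages in the response at day 2, 0 of 6 members were called by edgeR or DESeq2 and 2, Sele and Vcam1, had an unadjusted p under 0.05, where 0% of all genes were called and 5.39% had such an unadjusted p. The fitted difference, aged minus young response, was -1.31 ± 0.51 for Vcam1 (adjusted p = 0.847). That of Sele had an unadjusted p of 0.00188 (adjusted p = 0.847, and 0.00205 with no filter), with the young sham at 0.

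Cells other than endothelium carried some of these genes. Pooled over young libraries, Icam2 and Pecam1 were highest in endothelial cells in every group, 288 to 345 CPM and 803 to 866 CPM. Vcam1 was highest in border-associated macrophages (BAM), which line the vessels and meninges, at 546 CPM in sham, 462 at day 2 and 320 at day 14, against 121, 92 and 183 CPM in endothelium. Its BAM libraries spread from 49.5 to 752 CPM in sham, from no whole count in replicate 3 to 665 at day 2, and from 30.7 to 483 at day 14. In 19.9% of 587 sham BAM a Vcam1 count was found. The exact permutation p for Vcam1 in BAM was 0.543 at day 2 against sham (adjusted p = 0.76), and without sham replicate 2 the difference turned from -112 to 13.8 CPM. By sub-type, BAM1 held Vcam1 at 804 CPM in sham (interval 688 to 937), 1025 at day 2 (858 to 1219) and 869 at day 14 (654 to 1119), and made up 45.5%, 28.6% and 34.1% of BAM. BAM2 had 47.6 CPM in sham and 24.4 at day 14. BAM3, 16.4% of BAM in sham and 15.4% at day 2, had Vcam1 at 761 CPM (500 to 1121) and 221 (121 to 389), and BAM4, 26.9% of BAM at day 2, had 257 CPM there (168 to 377) and 681 in 10 sham cells (251 to 1490). Icam1 in BAM was 37.5, 0, 33.3 and 44 CPM at day 2 and 200, 153, 96.3 and 66.5 CPM at day 14, without overlap, as held for 1.33% of 7589 genes in that direction (exact permutation p = 0.0286, 0.1 adjusted). Within BAM2 Icam1 was 167 CPM in sham (interval 102 to 257), 61.2 at day 2 (16.7 to 157) and 216 at day 14 (135 to 321), and within BAM1 30.4, 30.6 and 75.1 CPM on 3.9 to 6.3 counts each. BAM2 made up 34.4%, 21.8% and 50.5% of BAM in the same order.

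Icam1 was the member found across leukocytes. In microglia it was 155, 135, 161 and 98.5 CPM in sham, 77.3, 78.7, 48.2 and 109 CPM at day 2, and 340, 64, 159 and 185 CPM at day 14. The log2 difference of day 14 against day 2 was 1.40 ± 0.42 (edgeR adjusted p = 0.0594, DESeq2 0.0156, edgeR without day 14 replicate 2 0.00941). The microglial sub-types differed between groups: Mg1 and Mg2 made up 53.6% and 37.2% of sham cells, Mg4 and Mg5 38.4% and 33.8% at day 2, and Mg3 66.1% at day 14. Icam1 in Mg2 was 193 CPM in sham (interval 175 to 212), 259 at day 2 (191 to 345) and 322 at day 14 (250 to 413), and in Mg6 188 in sham (139 to 247) and 444 at day 14 (394 to 497). In Mg1 it was 87.2, 109 and 74.4 CPM and in Mg3 201, 159 and 186 CPM in sham, at day 2 and at day 14, with intervals that overlap between groups in both. Mg4 had 121 CPM in sham (56.1 to 233), 83.7 at day 2 (69.8 to 99.5) and 122 at day 14 (36.4 to 261). Mg5 had 77.7 CPM in sham (24 to 173), 87.7 at day 2 (75.6 to 101) and 204 at day 14 (143 to 281, 113 cells). In granulocytes Icam1 was 15.2, 8.36, 0 and 0 CPM in sham, 156, 309, 173 and 28.8 CPM at day 2, and 662, 415, 123 and 43 CPM at day 14. Both stroke groups lay above sham without overlap, as did 4.16% at day 2 and 6.99% at day 14 of the 5620 granulocyte genes with at least 20 CPM in a young group. The exact permutation p was 0.0286 for each, 0.1 adjusted. The groups held different granulocyte sub-types: Gran1 was 427 of 517 cells in sham, 124 of 350 at day 2 and 16 of 363 at day 14, and Gran2 was 14, 169 and 210 cells. Within Gran1 Icam1 was 8.65 CPM in sham (1.8 counts) and 0 at day 2, and the stroke counts lay in Gran2, at 242 and 250 CPM, in Gran3, at 355 and 110 CPM, and at day 14 also in Gran5 (2 counts). Gran2 in sham was at 0, with an interval up to 550 CPM, so that a change within Gran2 was not detectable at this depth. The intervals of Gran1 were narrower, 1.16 to 34.5 CPM in sham and up to 40.8 CPM at day 2. In monocyte-derived cells Icam1 was 31 to 150 CPM in sham, 53.2 to 85.2 at day 2 and 61.3 to 164 at day 14.

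Of the 3 members tested in microglia, 0 were called by edgeR at day 2, 1 at day 14 and 0 at day 14 against day 2, where 31.4%, 15.2% and 6.93% of all genes were called. At unadjusted p under 0.05 these counts were 1, 2 and 2, where 44.2%, 32.9% and 22% of all genes had such a p. DESeq2, which also tested Icam2, called 1 in each comparison, Icam2 against sham at both times and Icam1 at day 14 against day 2. Over all genes DESeq2 called 3600 at day 2 and 2180 at day 14 against sham. The member called by edgeR was Pecam1, at 18.6, 10.1, 9.21 and 11.2 CPM in sham and 4.76, 0, 0 and 0 CPM at day 14. Its log2 difference was -2.58 ± 0.81 (edgeR adjusted p = 0.0464), and the call held in 5 of 16 alternatives, with 0.118 as the highest adjusted p. It was lost without sham replicate 1 (0.102), 2 (0.106), 3 (0.105) or 4 (0.118) and without day 14 replicate 2 (0.0971), 3 (0.0939) or 4 (0.0677). Icam2 counts in microglia were 0 in the 4 sham libraries, 5.41, 3.58, 0.722 and 8.16 CPM at day 2 and 2.69, 2.68, 3.84 and 0 CPM at day 14. Against the sham floor of 0.536 CPM, pooled Icam2 was higher by at least 12.8-fold and at least 4.35-fold, respectively. The filter left it out of the edgeR fit, and DESeq2's adjusted p was 0.00696 and 0.0412. A count was found in 34 of 2693 microglia at day 2 (1.26%, median 972 counts), beside 79 of 7225 monocyte-derived cells (1.09%, median 1134), 9 of 1282 dendritic cells (0.702%, median 921) and 0 of 350 granulocytes (median 449). Endothelium in the same libraries held 335 CPM of Icam2 and 866 of Pecam1. In aged mice an Icam2 count was found in 7 of 2714 sham microglia (0.258%), 11 of 1452 at day 2 (0.758%) and 0 of 1804 at day 14. Whether these low counts come from microglia or from free RNA of other cells was not tested.

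In monocyte-derived cells 0 of 2 members tested were called in any of the 3 comparisons by edgeR or, where it gave an adjusted p (not for Icam2 at day 14 against sham), by DESeq2, with 0 at an unadjusted p under 0.05, where 6.71%, 5.15% and 1.79% of all genes were called and 20.1%, 16.8% and 11.7% had such an unadjusted p. With the replicate block, the last comparison called 469 genes in place of 145, and still 0 of the members. Selp was also counted in dendritic cells, at 28.9, 53.4, 16.5 and 4.17 CPM at day 2 and 0 in all sham and day 14 libraries. The exact permutation p was 0.0286 against either group (0.1 adjusted). The depth behind the zeros differed. Pooled Selp of 25.5 CPM at day 2 was at least 1.7-fold over the sham floor (15.1 CPM) and 16.9-fold over the day 14 floor (1.51 CPM). Day 2 replicate 4 lay below that sham floor. Genes without overlap in those directions made up 5.6% and 3.73% of 6911 compared by the same minimum. Of 34.1 Selp counts, 29.7 lay in the sub-type DC3, which was 10.6% of dendritic cells in sham, 34.7% at day 2 and 5.67% at day 14. Selp in DC3 was 51.5 CPM at day 2 (interval 35.1 to 74.2) and 0 in 30 sham cells, with an interval up to 109. None of the 32 dendritic cells with Selp had a platelet gene, which 1.2% of the others did. Selp in granulocytes came to 3 counts in sham, 7 at day 2 and 5 at day 14.

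**Figure D4:**
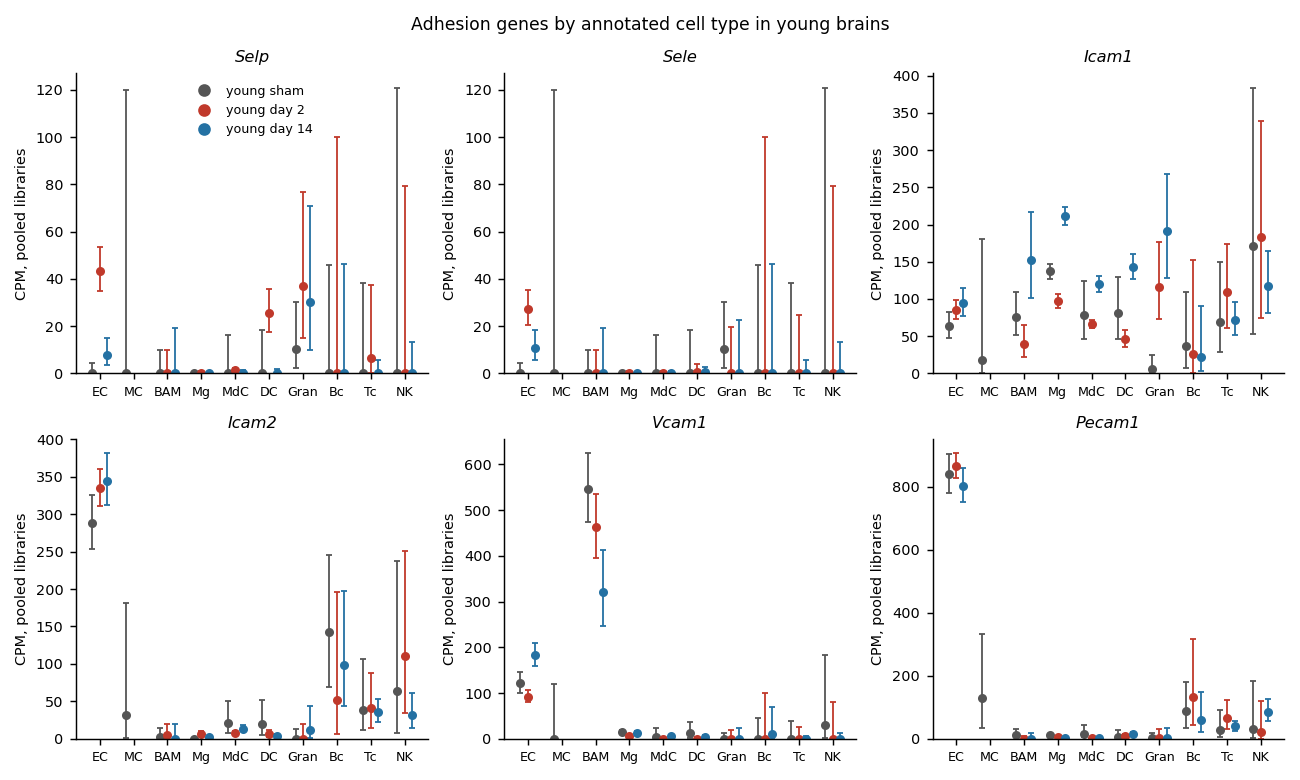
CPM pooled over libraries (y axis) by annotated cell type (x axis: EC endothelial, MC mural, BAM border-associated macrophages, Mg microglia, MdC monocyte-derived, DC dendritic, Gran granulocytes, Bc and Tc B and T cells, NK natural killer cells) in young brains, with exact Poisson 95% intervals; combinations under 50 cells are left out. Icam2 and Pecam1 are highest in EC, Vcam1 in BAM, and Icam1 is spread over leukocytes.

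Partner genes of the same steps were read in the same fits. Of 16 endothelial capture and signalling partners, 13 were tested at day 2 against sham in young endothelium, and 6 were called higher and 1 lower, where 6.89% and 6.45% of all genes were. The median log2 difference of the list was 0.42, beside 0.00 over all genes. Ackr1 rose by 2.83 ± 0.70 on the log2 scale (SE, edgeR adjusted p = 0.0161), but DESeq2 gave 0.0914, and edgeR gave 0.0645 without sham replicate 3 and 0.0575 without sham replicate 4. Anxa2, which with S100a10 forms an annexin complex at the membrane, rose by 1.48 ± 0.20 (edgeR adjusted p = 0.000569) and was called in 19 of 20 alternatives. Vwf, the von Willebrand factor of the P-selectin storage granules, rose by 1.08 ± 0.31 (edgeR adjusted p = 0.0329). Its call was lost without sham replicate 2, 3 or 4 or day 2 replicate 1 or 3, with adjusted p from 0.0674 to 0.118. S100a10 rose by 1.06 ± 0.31 (edgeR adjusted p = 0.0341), a call lost without sham replicate 2, 3 or 4 or day 2 replicate 3 or 4 (0.063 to 0.128).

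The same list turned at day 14 against day 2, with 0 of 13 called higher and 4 lower, where 5.07% and 6.14% of all genes were. Anxa2 fell by 2.01 ± 0.20 on the log2 scale (edgeR adjusted p = 7.14e-05) in this comparison, and was called in 20 of 20 alternatives. S100a10 fell by 1.38 ± 0.31 (0.0113) and Msn, or moesin, a linker of membrane proteins to actin, by 1.10 ± 0.20 (0.00302). Vwf fell by 1.07 ± 0.31 (edgeR adjusted p = 0.0353), a call that did not hold with day 2 replicate 1 or 3, or 1 of day 14 replicates 1, 3 and 4, left out (0.0746 to 0.0947). The 2 comparisons share the day 2 libraries.

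Of 16 diapedesis and junction partners, 13 were tested at day 2 against sham, with 1 called higher and 1 lower, near the 6.89% and 6.45% of all genes. At day 14 against day 2 it was also 1 in each direction, where 5.07% and 6.14% of all genes were. Mcam, an adhesion molecule of vessel walls, rose by 2.43 ± 0.73 on the log2 scale (edgeR adjusted p = 0.0377), a call lost without sham replicate 2, 3 or 4 or day 2 replicate 4 (0.0617 to 0.132). Ctnnb1, the beta-catenin of adherens junctions, fell by 0.92 ± 0.26 (edgeR adjusted p = 0.0285), a call lost without sham replicate 2, 3 or 4 or day 2 replicate 2, 3 or 4 (0.0502 to 0.11). From day 2 to day 14, Ctnnb1 was higher by 0.96 ± 0.26 (0.0256), which did not hold with day 2 replicate 3 or 4, or 1 of day 14 replicates 1 and 4, left out (0.0552 to 0.0934). Cd151, a tetraspanin, fell by 0.67 ± 0.21 (edgeR adjusted p = 0.0469), lost without any 1 of the libraries but day 14 replicate 3 (0.0586 to 0.137).

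Of 16 cytokine receptor and NF-kB genes, 10 were tested at day 2 against sham, and 1 was called higher and 0 lower, near the 6.89% and 6.45% of all genes. Tnfrsf1a, a receptor for tumour necrosis factor, rose by 1.43 ± 0.28 on the log2 scale (edgeR adjusted p = 0.00448) and was called with any 1 library left out. From day 2 to day 14, Tnfrsf1a was the 1 gene of 10 called lower, where 6.14% of all genes were, with a log2 difference of -0.89 ± 0.26 (0.0361), lost without any 1 of the libraries but day 2 replicate 4 (0.0504 to 0.0814). At day 14 against sham edgeR called 0 genes of the 3 lists, as of all genes, and in aged mice at day 2 also 0. With cells of at least 800 counts, Anxa2 alone of the 7 genes named for day 2 against sham kept its call (the others 0.135 to 0.699), and within the low mitochondrial set, with 1 sham library, none did (0.121 to 0.848). Of the 7 named for day 14 against day 2, Anxa2 and Msn kept theirs with those deeper cells (the others 0.066 to 0.169), and Anxa2 alone was called within both mitochondrial sets. With no filter, Ctnnb1 was lost in both comparisons (0.0654 and 0.058) and Cd151 and Tnfrsf1a in the later one (0.177 and 0.0997). Without TMM scaling, Vwf and S100a10 were lost at day 2 (0.0659 and 0.0635) and Cd151, Vwf and Tnfrsf1a at day 14 against day 2 (0.0767 to 0.11). The share of EC2 moved with the young groups, at 3.04% of endothelial cells in sham, 40.8% at day 2 and 2.92% at day 14. The summed level of 8 capillary genes moved with the young groups, from 5995 to 7227 CPM over sham libraries to 1692 to 3314 CPM at day 2 and 5220 to 7745 CPM at day 14. That of 8 marker genes of monocyte-derived cells, read in the endothelial cells, was 801 to 1527 CPM in sham, 1880 to 3017 at day 2 and 792 to 1754 at day 14. The part of any of these in the results was not tested.

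The leukocyte side of these bonds was read in microglia and monocyte-derived cells, whose called genes are named after their values were seen. In microglia at day 2 against sham, 6 of 12 counter-receptor genes were tested, and 3 were called higher and 1 lower, where 15.7% of all genes were in each direction. Itgax, an integrin alpha chain that pairs with Itgb2, rose by 2.30 ± 0.51 on the log2 scale (edgeR adjusted p = 0.00499), and Selplg, the ligand of P-selectin, fell by 1.33 ± 0.35 (0.0132). Both were called with any 1 library left out, but with cells of at least 800 counts the call of Itgax was lost (0.081). Cd44 (0.0376) and Itgb2 (0.0471) were also higher, with calls lost when any of 6 and 7 of the 8 libraries was left out (0.0558 to 0.173 and 0.053 to 0.133). At day 14 these 4 genes were called in the same directions, where 1071 of 10145 genes were called higher and 473 lower (670 and 2755 without TMM scaling). Itgax was at 5.44 ± 0.45 (edgeR adjusted p = 3.8e-06) and Itgb2 at 1.20 ± 0.26 (0.00777). The calls of Selplg (-1.15 ± 0.35, 0.0418) and Cd44 (0.0244) were lost when any of 7 and 4 of the 8 libraries was left out (0.0543 to 0.114 and 0.0503 to 0.0894). With cells of at least 800 counts Cd44 was lost at both times (0.117 and 0.0801), and with the mitochondrial term at day 2 (0.0661). Itgb2 at day 2 was lost with DESeq2, with no filter, without TMM scaling, with counts rounded up and with the mitochondrial term (0.0517 to 0.173), and Selplg at day 14 with no filter, with counts rounded up and with the replicate block (0.0565 to 0.0944). These fits compare groups made of different microglial sub-types. Within the sub-types most common after stroke, Selplg was also lower than in their few sham cells: in Mg4 1828 CPM in sham (exact Poisson interval 1530 to 2162) and 501 at day 2, in Mg5 2138 (1809 to 2523) and 997 (955 to 1041), and in Mg3 1732 (1385 to 2127) and 644 at day 14 (620 to 669). In Mg1, the largest in sham, it was 2474 CPM in sham (2416 to 2534), 2398 at day 2 (2187 to 2621) and 1929 at day 14 (1721 to 2159). In Mg2, Selplg was 2337 CPM in sham (2275 to 2400), higher at day 2 with 2771 (2535 to 3025) and lower at day 14 with 1972 (1782 to 2176). Itgax in Mg3 was 19.2 CPM in sham (1 count), 28.6 at day 2 and 77.5 at day 14, and in Mg4 36.7 in sham (2.7 counts) and 7.88 at day 2.

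In monocyte-derived cells at day 2 against sham, 11 counter-receptor genes were tested, and 0 were called higher and 3 lower, where 5.66% and 1.05% of all genes were. Over all genes this split of 457 higher and 85 lower became 180 and 175 without TMM scaling and 322 and 197 with DESeq2. Spn, the sialophorin of the leukocyte surface, fell by 3.43 ± 0.47 on the log2 scale (edgeR adjusted p = 0.000715). Itgal, which pairs with Itgb2 to bind ICAM-1, fell by 1.96 ± 0.50 (0.0293) and Itga4, which pairs with Itgb1 to bind VCAM-1, by 1.56 ± 0.31 (0.00691). The call of Itgal was lost without sham replicate 1, 3 or 4 or day 2 replicate 3 or 4 (0.061 to 0.253), and that of Itga4 without sham replicate 3 (0.0539). With cells of at least 800 counts none of the 3 calls held (0.0666 for Spn and Itga4, 0.154 for Itgal), and Itgal was also lost with at least 50 cells per library (0.061). The cells compared lay in different sub-types: MdC3 was 243 of 318 cells in sham and 1064 of 7225 at day 2, where MdC1 (2267 cells) and MdC2 (2082) led. Within MdC3, Spn was 114 CPM in sham (exact Poisson interval 69.5 to 180) and 30.2 at day 2 (20.6 to 42.1). Itgal there was 210 CPM (148 to 296) and 60.1 (46.3 to 76.2), and Itga4 361 (273 to 462) and 204 (178 to 233). These intervals pool libraries and cover counting error only, and MdC1 and MdC2 at day 2 had Spn at 2.07 and 2.5 CPM. At day 14 against sham, Spn (-3.07 ± 0.49, edgeR adjusted p = 0.00181) and Itgal (-2.30 ± 0.52, 0.0173) were called lower. Itga4 was not (-0.69 ± 0.30, 0.254). Of 8080 genes, 76 were called lower in that comparison.

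Likeness was taken as the Pearson correlation of mean log2(CPM + 1) over 28 combinations of 10 cell types with the 3 young groups, each of at least 50 cells, among 10681 genes. The combinations share libraries, so no p is given. Selp and Sele were most like each other among the members (0.71), followed by Icam2 and Pecam1 (0.63), while Selp and Vcam1 had 0.04. Over all genes, those most like Selp were Fkbp10 (0.71), Zbtb42 (0.69) and Adamts9 (0.68), and those most like Sele were Gm13056 (0.94), Adamts4 (0.92) and Nsg1 (0.89). Icam2 was most like Arap2 (0.83), Abcb1a and Ppp1r16b (0.80 each), and Pecam1 like Sptbn1 (0.83), Akap12 (0.82) and Ablim1 (0.80). Vcam1 was most like Trpv4 and Nthl1 (0.90 each) and Ccdc152 (0.87), and Icam1 like Gm44705 (0.88), Plgrkt and Tbpl1 (0.84 each).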

How the data were processed

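Expression was measured by Drop-seq in 18 brain libraries; blood libraries were not used here. The authors deposited, per library, a table of estimated counts per gene and cell (fractional, not normalized, from the values of the tables) with the parent cell type, sub-type, total count per cell and percent of mitochondrial counts of each cell. Per the submitters' processing notes, mm10 and Seurat were used; aligner, annotation, strand, cell filters, doublet treatment and what made the deposited counts fractional are not given in the sources used here. No barcode was removed, and every deposited cell entered.

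Counts were summed per library and parent type, rounded, and fitted where a library had at least 20 cells of the type, with edgeR 4.0.16 (TMM scaling, filterByExpr, quasi-likelihood test, R 4.3.3), separately for the 3 young groups and for the 4 groups at day 2. Genes were called at a Benjamini-Hochberg adjusted p under 0.05 over all genes tested. Sele in endothelium, which the filter left out, was compared by exact two-sided permutation of library CPM (scipy 1.17.1), with libraries taken as unpaired. The same test was used for some members in BAM, granulocytes and dendritic cells, which were not fitted. These were chosen after their levels were seen. Other members that the filter left out, such as Icam2 in microglia, had no such test. Leukocyte sub-type levels pool libraries and were chosen after the fits were seen. A level of 0 was bounded with 3 counts over the group. A cell with a count has a rounded count of at least 1. Whether libraries of a group came from separate cohorts is not stated, so p-values measure the spread between libraries. On simulated counts for the day 2 endothelial comparison (5833 genes, 50 changed per fold size), the fit recovered 34% of 2-fold, 84% of 4-fold, 100% of 8-fold and 98% of 16-fold changes. For the replicate block, replicate numbers were taken to pair day 2 with day 14, although no label gives such pairs. The deviations of all 4 same-numbered endothelial libraries from their group means correlated (0.139 to 0.478). Replicates 1 and 2 of both are also the low mitochondrial set, and differently numbered libraries of the same set correlated too (0.061 to 0.286). Day 2 replicate 4 was closer to day 14 replicate 3 (0.286) than to replicate 4 (0.139). Pairing by number cannot be told apart from the mitochondrial set. Sham was not paired (-0.119 to 0.151). Alternatives were DESeq2 1.42.0, other filters and scaling, stricter cells, single libraries left out, a replicate block, sex as a covariate in aged fits and, added after seeing the data, the mitochondrial split (cut at 3%). The members, lists and the rule for named genes (the members, the called list genes of endothelial comparisons with the 4 largest differences per list, and the 3 most like genes per member) were chosen with earlier results of these data known.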

Additional observations from a re-analysis of the deposited data

Results flagged for a closer look

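Of 58 groups of 4 libraries examined, 13 had a library apart from the other 3 by Dixon's criterion, which chance alone meets in about 1 in 20 groups. Groups whose other libraries are all at 0 meet it with any single library above 0. Values are CPM of summed counts.

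In endothelial cells at day 14, replicate 3 stood apart with Selp at 38.3 and Sele at 51.2 where the other libraries were at 0, and replicate 4 stood apart as the lowest for Icam2 (267, the others 345 to 357) and for Pecam1 (662, the others 808 to 826). In sham endothelium, replicate 1 was the highest for Vcam1, at 168 where the others were 81.3 to 90.3. Microglia of day 14 replicate 1 had Pecam1 at 4.73, with the others at 0.

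Among the other leukocytes, replicate 1 at day 2 stood apart in monocyte-derived cells for Vcam1 (1.72) and Pecam1 (7.18), with the others at 0, and in dendritic cells for Pecam1 (20.4, the others 0 to 1.38). Granulocytes of sham replicate 3 had Selp at 48.5 and Sele at 48.5, and those of day 14 replicate 3 Selp at 52.7, with 0 in the other libraries of each group. Dendritic cells of sham replicate 1 had Icam2 at 54.1, with the others at 0.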

How the results depend on the processing

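Depth limits the selectins, which rest on 14.3 to 39.7 (Selp) and 7.8 to 23.7 (Sele) counts per endothelial library at day 2. Of 1492 alternatives run for single genes, 1279 kept direction and side of the threshold, 151 lost a call, 12 gained one and 50 reversed. The cause of each change below was not tested.

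Counts of called genes moved as follows. In endothelium, day 2 against sham (778) became 45 with cells of at least 800 counts, 40 within the low mitochondrial set and 320 to 991 leaving out a library. Its split of 402 higher and 376 lower became 302 and 467 without TMM. Day 14 against sham (0) became 14 with DESeq2, 6 with no filter, 2 with the mitochondrial term, 22 within the low set and 0 to 1 leaving out a library. Day 14 against day 2 (654) became 404 with no filter, 423 with deeper cells, 13 and 133 within the low and high sets, and 324 to 523 leaving out a library; 296 higher and 358 lower became 405 and 244 without TMM. In microglia, leaving out a library gave 2094 to 3120, 791 to 2573 and 276 to 735 for day 2 and day 14 against sham and day 14 against day 2, the last 2 became 3425 and 1157 without TMM, and the last became 426 with only the compared groups. In monocyte-derived cells the same 3 counts were 284 to 481, 246 to 349 and 45 to 191 leaving out a library and 117, 103 and 89 with deeper cells. The first became 355 without TMM and the last 420 with DESeq2 and 348 with the mitochondrial term. The aged comparison (40) became 133 with DESeq2, 135 with no filter, 0 with deeper cells, 66 with the mitochondrial term and 0 to 26 leaving out a library, and the difference between ages (0) became 124 with no filter.

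The replicate block takes same-numbered day 2 and day 14 libraries as pairs, which no label gives, and for sham shares a number only. With it the counts called were 766, 1 and 653 in endothelium, 3129, 1666 and 512 in microglia and 562, 518 and 469 in monocyte-derived cells. With this block Selp at day 2 had an edgeR adjusted p of 0.0154, Selplg in microglia at day 14 one of 0.0627, and Icam1 in monocyte-derived cells at day 2 a difference of 0.12. At day 14 against day 2 the block changed the call of no member and of no list gene named.

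Reversals were of log2 differences with no call. In endothelium at day 2, Icam2 was -0.28 in the low set, and Vcam1 was 0.10 with deeper cells, 0.35 in the high set and -0.31 to 0.10 leaving out a library. At day 14 against sham, Icam2 was -0.15 in the low set, and Pecam1 0.01 with no filter, 0.02 without TMM, 0.01 with only the compared groups and -0.09 to 0.06 leaving out a library. At day 14 against day 2, Icam1 was -0.20 to 0.34 leaving out a library, Icam2 0.00 without TMM, 0.13 in the low set and -0.20 to 0.01 leaving out a library, and Vcam1 -0.29 in the high set. In microglia at day 14, Vcam1 was -0.01 with DESeq2, -0.29 without TMM, -0.06 with counts rounded up and -0.05 to 0.41 leaving out a library. In monocyte-derived cells at day 2, Icam1 was 0.33 with no filter, 0.14 with deeper cells, 0.13 with at least 50 cells per library, 0.02 with the mitochondrial term and -0.47 to 0.73 leaving out a library. With deeper cells Icam2 was 0.39 there at day 2 and 0.98 at day 14, where it was -1.21 to 0.64 leaving out a library. In aged endothelium, leaving out a library gave Sele at -0.87 to 0.76, Icam1 at -0.09 to 2.07 and Icam2 at -0.30 to 0.65. The difference between ages was 1.59 for Selp and 0.65 for Icam1 with deeper cells, and, leaving out a library, -3.44 to 1.43, -0.85 to 1.31 and -0.87 to 0.08 for Selp, Icam1 and Icam2. Leaving out a library took the day 14 minus sham CPM difference of Selp in granulocytes to -12.1 to 13.2, and that of Vcam1 in BAM to -246 to 13.8 (day 2 minus sham) and -165 to 64.9 (day 14 minus day 2). Mural cells had too few libraries of 20 cells and were not fitted.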
